A study of Homo sapiens with 12 samples.

Results

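The genes described here were 6 Krüppel-like transcription factors, KLF5, KLF2, KLF4, KLF6, KLF9 and KLF10, and the paired histone methyltransferases EHMT1 and EHMT2, the second of which is also called G9A. They were taken by symbol, without regard to their values, and all 8 were found among the 26475 genes of the deposited count files. The libraries came from SUM159 (SUM159PT), a single human triple-negative breast cancer line, grown as tumours in female NOD scid gamma mice that were 8 weeks old at injection. These mice lack lymphocytes and natural killer cells but keep macrophages, neutrophils and their own stroma. Antibodies to the human antigens served to sort CD44+ tumour cells by their CD24, low or high, and the submitters describe the sort as one that separates cancer stem cells from differentiated cells. The 12 libraries formed 4 groups of 3, which were CD24-low cells of mice on cycles of a fasting-mimicking diet (FMD_LO), CD24-low cells of mice on standard diet (CTR_LO), CD24-high cells of mice on the fasting-mimicking diet (FMD_HI) and CD24-high cells on standard diet (CTR_HI). The fasting-mimicking diet was given on 4 days in a row of each week. The labels do not say whether a library came from 1 mouse or from pooled mice, so the p-values measure only the spread between these samples.

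Krüppel-like factors share a carboxy-terminal zinc-finger domain that binds GC-rich and CACCC-type promoter elements, and their other parts set whether they activate or repress. KLF5 is an activator that supports proliferation in basal breast cancer cells and takes part in the upkeep of stem cells, and in embryonic stem cells of the mouse KLF2, KLF4 and KLF5 act on overlapping sets of genes. KLF9 is a target of the glucocorticoid receptor, KLF10 is an early target of transforming growth factor beta, and KLF6 has been described as a growth suppressor. EHMT1 and EHMT2 form a heterodimer that places methyl groups on lysine 9 of histone H3, a mark of silenced genes.

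The sequences before the start sites of KLF4 and KLF9, the 2 members that passed the test between diets, are shown with those of KLF5, the factor the set is built around. Each is the 250 bases before a gene's start in RefSeq (GRCh38.p14), read 5′ to 3′ on the gene's own strand. Capitals mark TGACG or its complement CGTCA, the half-site bound by CREB, a factor activated by protein kinase A. The KLF4 window lies at chr9:107489770-107490019 (minus strand), the KLF9 window at chr9:70414658-70414907 (minus strand), and KLF5 has 2 annotated starts, with windows at chr13:73054726-73054975 and chr13:73058755-73059004 (plus strand).
KLF4: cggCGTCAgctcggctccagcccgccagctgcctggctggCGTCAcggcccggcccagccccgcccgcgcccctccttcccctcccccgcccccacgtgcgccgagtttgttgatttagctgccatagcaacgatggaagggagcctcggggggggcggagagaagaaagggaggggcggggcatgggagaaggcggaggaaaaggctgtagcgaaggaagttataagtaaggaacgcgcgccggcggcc
KLF9: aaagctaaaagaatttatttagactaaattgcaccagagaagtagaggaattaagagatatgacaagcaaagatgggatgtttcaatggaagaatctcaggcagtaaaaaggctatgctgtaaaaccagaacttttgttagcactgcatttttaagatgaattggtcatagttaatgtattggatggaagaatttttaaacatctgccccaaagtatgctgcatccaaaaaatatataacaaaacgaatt
KLF5, first start: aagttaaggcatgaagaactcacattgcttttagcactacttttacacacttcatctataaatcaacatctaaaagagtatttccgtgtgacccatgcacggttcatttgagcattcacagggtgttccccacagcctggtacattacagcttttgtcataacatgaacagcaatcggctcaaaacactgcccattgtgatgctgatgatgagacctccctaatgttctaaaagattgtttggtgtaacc
KLF5, second start: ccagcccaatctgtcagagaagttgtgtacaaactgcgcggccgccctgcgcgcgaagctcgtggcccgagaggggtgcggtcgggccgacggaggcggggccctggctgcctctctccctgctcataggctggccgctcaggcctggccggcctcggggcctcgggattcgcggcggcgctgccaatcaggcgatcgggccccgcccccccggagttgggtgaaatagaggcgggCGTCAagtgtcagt

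The KLF4 window held 2 half-sites, whose first bases lay at -247 and -210 counted from the start site, and 4 copies of the GC box GGGCGG on either strand. The second KLF5 window held 1 half-site at -14 and 2 GC boxes. The first KLF5 window held neither, and it held 1 copy of AGAACA, the half-site of the glucocorticoid receptor. The KLF9 window held none of these 3 letter strings and was AT-rich, with 32.4% G and C, against 69.2% for KLF4 and 40.8% and 70.8% for the first and second KLF5 windows. Among 35116 windows of the same length before annotated starts, 21.2% held TGACG, 12.4% held AGAACA and 42.6% held GGGCGG on either strand. The windows of KLF2, KLF6, EHMT1 and EHMT2 held no TGACG and no AGAACA, and between 1 and 4 GC boxes each. A match to these letters is a description of the sequence and not evidence of binding.

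Depth was lower in FMD_LO, at 17736610 to 18579816 counted reads, than in the other 9 libraries, at 29049144 to 47587142. FMD_LO also stood apart on the first principal component (57.6% of the variance), with scores of 41.8 to 53.6 against -28.7 to 0.70 in the other 9. Markers of host-type cells moved with this group. The summed level of 13 leukocyte markers, as counts scaled by library size (CPM), was 717 to 755 in FMD_LO and 134 to 150.2 in CTR_LO, and 149 to 176 in FMD_HI and 118 to 177 in CTR_HI. LCP1 made up most of it, with 24143 counts in the FMD_LO and 11931 in the CTR_LO libraries. Of the 11 markers tested 8 were called higher in FMD_LO than in CTR_LO and 0 lower, where 16.4% of all genes were called. PTPRC, SPI1 and CSF1R had 2671, 2286 and 1326 counts in the 3 FMD_LO libraries together, against 332, 143 and 163 in the deeper CTR_LO libraries, whereas TYROBP had 0 in FMD_LO. CD68, CD14 and LAPTM5 had 914, 212 and 863 counts in FMD_LO, against 1084, 241 and 1245 in CTR_LO. These counts are not scaled to depth, and all 11 leukocyte markers tested had a positive log2 fold change in FMD_LO over CTR_LO. The sums of 12 fibroblast markers were 47060 to 69670 CPM in FMD_LO against 20210 to 35680 in CTR_LO, and were made up mostly of COL1A1, COL1A2 and COL3A1. Of the 12, 5 were called higher and 0 lower, with a median log2 fold change of 0.88. The rise was not uniform, since 10 of the 12 had a positive log2 fold change. The sums of 12 endothelial markers were 50.2 to 104.5 CPM in FMD_LO against 32.97 to 42.6 in CTR_LO, and 2 of the 11 tested were called higher and 0 lower. Those of 5 erythroid markers were 6.95 to 30.98 CPM against 0.497 to 4.602, nearly all of it HBB, with HBA2 at 0 in both groups. The sums of 9 genes typical of this tumour line overlapped, at 7653 to 9087 CPM in FMD_LO and 7271 to 8266 in CTR_LO, and were made up mostly of VIM. Their median log2 fold change was -0.32, and 1 of the 9, KRT18, was called lower and 0 higher. KLF2, KLF4, KLF6 and KLF9 are also expressed by leukocytes, endothelium or fibroblasts, and the part of such cells in the differences below was not tested. In bulk samples of this kind, fewer cells of a type and less RNA per cell cannot be told apart.

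All 8 genes passed the filter on low counts, and the lowest single count was 444, for KLF2, which sets a counting error of 4.75%. Over all 12 libraries, and scaled to the length of the principal transcript, KLF6 was highest at a mean of 151 CPM per kilobase. KLF10 followed at 81.2, KLF5 at 33.3, EHMT2 at 20.1, KLF4 at 19.0, KLF2 at 12.02, EHMT1 at 9.51 and KLF9 at 7.10 CPM per kilobase. KLF10 and KLF5 were the one pair of neighbours in this order whose ranges over the libraries did not overlap. Scaled to the union of all annotated exons, which for EHMT1 is 22217 bases against 5137 in its principal transcript, EHMT2 moved to place 6 and EHMT1 to place 8. The levels given below are CPM, not scaled to length, and compare samples within a gene.

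**Figure D1:**
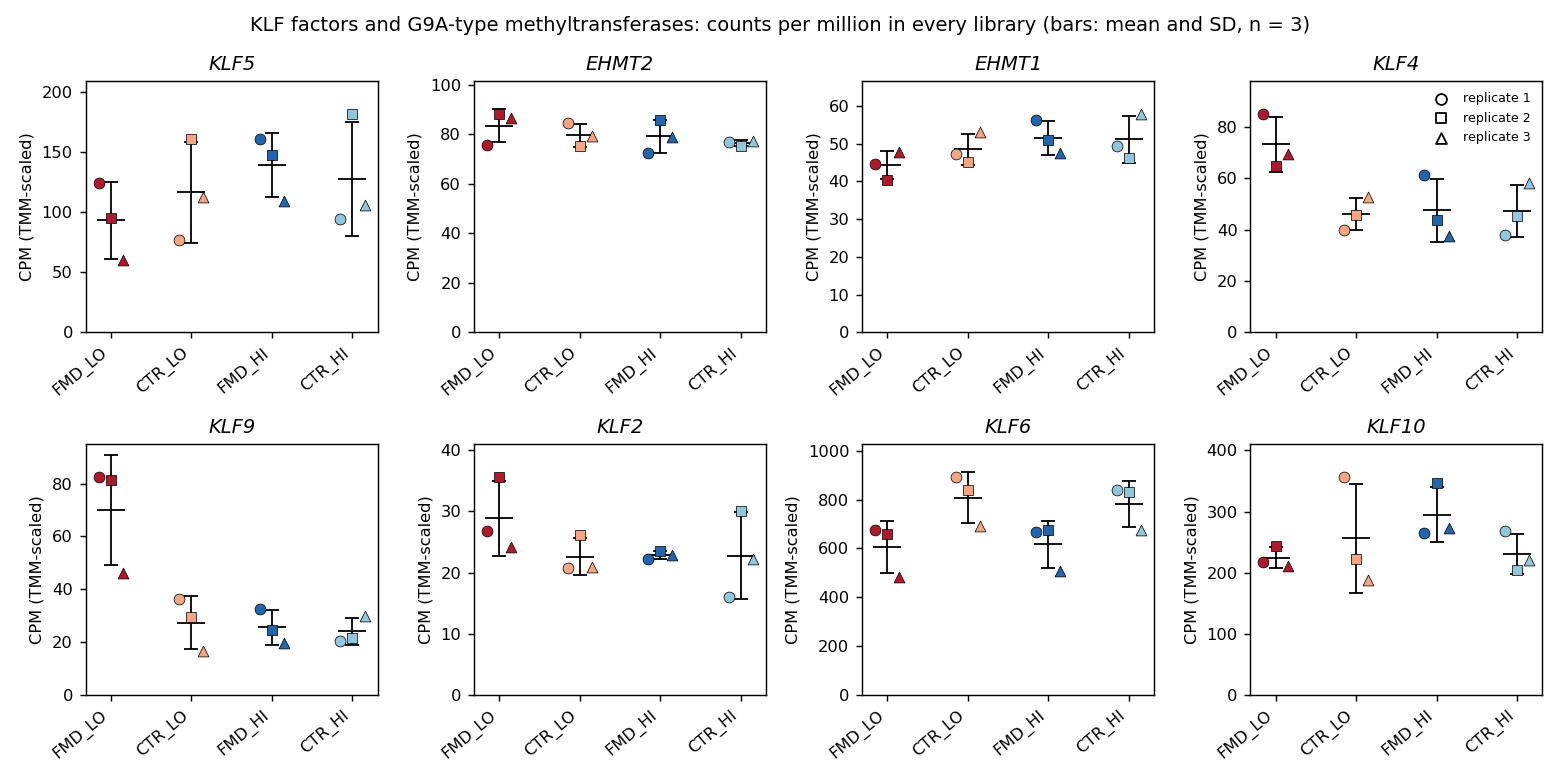
Each panel shows 1 gene, with TMM-scaled CPM on the vertical axis (from 0) and the 4 groups on the horizontal axis, a marker shape per replicate number, and bars for mean and SD (n = 3). All 3 FMD_LO libraries lie above all 3 CTR_LO libraries for KLF4 and KLF9 and below them for KLF6, whereas the groups overlap for KLF5, EHMT1 and EHMT2.

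KLF5 (chromosome 13, 73054976 to 73077538, GRCh38) did not differ between diets in either population beyond the spread of its replicates. In CD24-low cells it stood at 124, 95.0 and 60.1 CPM in FMD_LO and at 76.5, 160.3 and 112 CPM in CTR_LO. The highest FMD_LO library was above 2 of the 3 CTR_LO libraries, so the groups overlapped widely. The log2 fold change was -0.32 ± 0.33 (SE; adjusted p = 0.549, edgeR). Leaving out single libraries moved this value between -0.59 and -0.04. In CD24-high cells KLF5 stood at 160.3, 147 and 109 CPM in FMD_HI and at 93.8, 182 and 106 CPM in CTR_HI. The highest of these 6 libraries belonged to the standard diet, and the log2 fold change was 0.13 ± 0.33 (adjusted p = 0.999). The standard errors of KLF5 were the widest among the 8 genes, and its coverage was not what limited them, since its lowest count was 1108.

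The 2 histone methyltransferases were the steadiest of the set over the 12 libraries. EHMT2 (chromosome 6, 31879759 to 31897698), the G9A enzyme, stood at 75.8, 88.3 and 86.6 CPM in FMD_LO and 84.6, 75.3 and 79.3 CPM in CTR_LO. In CD24-high cells it stood at 72.6, 85.9 and 79.0 CPM in FMD_HI and 76.9, 75.3 and 77.4 CPM in CTR_HI. The groups overlapped in both populations, and the log2 fold changes were 0.07 ± 0.11 in CD24-low (adjusted p = 0.699) and 0.05 ± 0.10 in CD24-high cells (0.999). EHMT1 (chromosome 9, 137619005 to 137836127), whose product G9A-like protein pairs with G9A, averaged 44.3 ± 3.67 CPM in FMD_LO and 48.5 ± 4.17 in CTR_LO (SD, n = 3 each). It averaged 51.6 ± 4.43 CPM in FMD_HI and 51.1 ± 6.12 in CTR_HI. Neither difference passed, with log2 fold changes of -0.13 ± 0.12 (adjusted p = 0.502) and 0.01 ± 0.12 (0.999).

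KLF9 (chromosome 9, 70384604 to 70414657) had the largest diet difference among the 8 genes, in CD24-low cells. It stood at 82.7, 81.3 and 46.1 CPM in FMD_LO and at 36.2, 29.6 and 16.5 CPM in CTR_LO. All 3 FMD_LO libraries lay above all 3 CTR_LO libraries, although the third FMD_LO library lay much closer to them than the other 2. The log2 fold change was 1.35 ± 0.31 (adjusted p = 0.0116, edgeR), a fold of 2.55, and it passed in each of 12 fits that left out 1 library, where its adjusted p reached at most 0.0430. In CD24-high cells the libraries overlapped, at 32.7, 24.4 and 19.6 CPM in FMD_HI and 20.5, 21.7 and 30.0 CPM in CTR_HI, with a log2 fold change of 0.09 ± 0.31 (adjusted p = 0.999).

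KLF4 (chromosome 9, 107484852 to 107489769), one of the factors used to reprogramme somatic cells to pluripotency, was also higher in FMD_LO. It stood at 85.1, 64.8 and 69.6 CPM in FMD_LO and at 39.95, 45.8 and 52.6 CPM in CTR_LO, and the groups did not overlap. The log2 fold change was 0.67 ± 0.20 (adjusted p = 0.0356), a fold of 1.59. The call was lost without FMD_LO replicate 1 (adjusted p = 0.132), without CTR_LO replicate 1 (0.116) and without CTR_LO replicate 2 (0.0818), and also with a replicate block (0.0517). In CD24-high cells KLF4 stood at 61.3, 43.8 and 37.7 CPM in FMD_HI and at 38.0, 45.2 and 58.0 CPM in CTR_HI, with a log2 fold change of 0.02 ± 0.20 (adjusted p = 0.999).

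Among the other 3 factors, KLF6 (chromosome 10, 3775996 to 3785209) stood at 677, 659 and 485 CPM in FMD_LO and at 895, 838 and 693 CPM in CTR_LO. The 2 groups did not overlap, yet the log2 fold change of -0.41 ± 0.16 missed the threshold (adjusted p = 0.104). KLF6 stood at 669, 676 and 507 CPM in FMD_HI and at 839, 833 and 675 CPM in CTR_HI, with a log2 fold change of -0.34 ± 0.16 (adjusted p = 0.766). The highest FMD_HI library lay just above the lowest CTR_HI library. Averaged over both populations its log2 fold change was -0.38 ± 0.12 (adjusted p = 0.0530). That value was called in 6 of 7 other settings, with adjusted p from 0.00365 with a replicate block to 0.0586 with RLE scaling, and in 1 of the 12 fits that left out a library.

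KLF2 (chromosome 19, 16324826 to 16328685), best known for its role in quiescent endothelium and T cells, averaged 28.8 ± 6.08 CPM in FMD_LO and 22.6 ± 3.03 in CTR_LO, and 22.9 ± 0.656 in FMD_HI and 22.8 ± 7.05 in CTR_HI (SD, n = 3 each). Its log2 fold changes between diets were 0.35 ± 0.20 in CD24-low (adjusted p = 0.259) and 0.01 ± 0.20 in CD24-high cells (0.999). KLF10 (chromosome 8, 102648784 to 102655725) stood at 218, 244 and 211 CPM in FMD_LO and at 357, 222 and 188 CPM in CTR_LO. One CTR_LO library was far above the other 5, and the log2 fold change of -0.19 ± 0.20 (adjusted p = 0.558) turned to 0.12 without it (CTR_LO replicate 1). In CD24-high cells KLF10 averaged 295 ± 44.7 CPM in FMD_HI and 231 ± 32.6 in CTR_HI, a log2 fold change of 0.35 ± 0.20 (adjusted p = 0.848).

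In all, 2 of the 8 genes were called higher between diets in CD24-low cells and 0 lower. In that comparison 16.4% of the 15461 genes tested were called. The libraries of FMD_LO and CTR_LO did not overlap for 3 of the 8 genes, against 37.5% of all genes tested, so neither count of members was far from that of genes at large. The share of higher calls depends on the scaling, since 1863 of 2533 called genes were higher with TMM scaling and 1625 of 2979 with upper-quartile scaling. In CD24-high cells edgeR called 0 of the 8 genes, 0 had an unadjusted p below 0.05, and DESeq2 called 0. Across all genes edgeR called 0% there, 1042 genes had an unadjusted p below 0.05, and DESeq2 called 78.

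**Figure D2:**
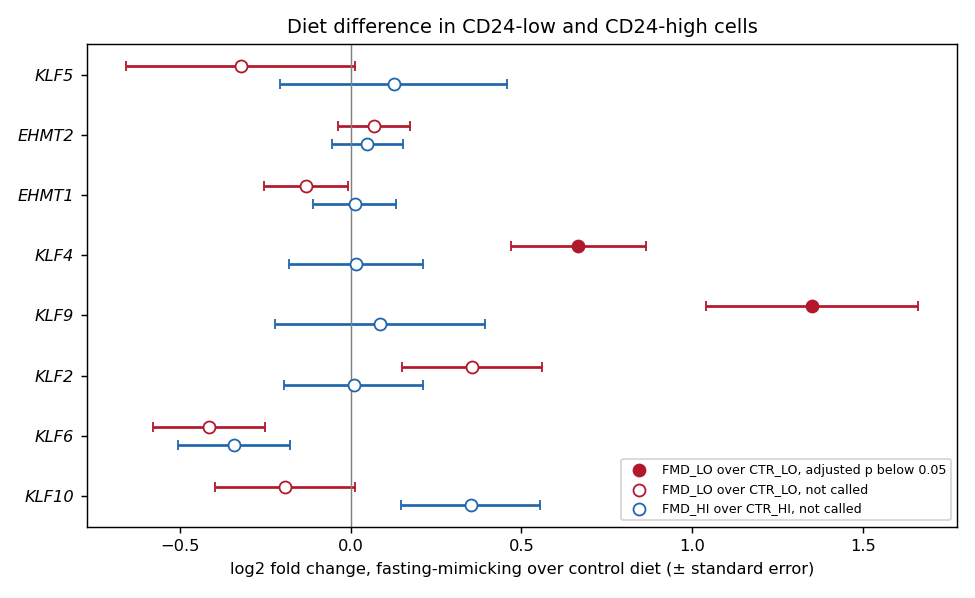
Log2 fold changes of the fasting-mimicking over the standard diet are plotted for the 8 genes with their standard errors, in CD24-low (red) and CD24-high cells (blue), with filled points for an adjusted p below 0.05. KLF9 at 1.35 and KLF4 at 0.67 in CD24-low cells are the only filled points, and both genes sit near 0 in CD24-high cells.

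Whether the diet difference itself differed between populations was tested as an interaction, the log2 fold change in CD24-low minus that in CD24-high cells. It was 1.26 ± 0.43 for KLF9 (adjusted p = 0.159), 0.65 ± 0.28 for KLF4 (0.277), -0.54 ± 0.29 for KLF10 (0.42) and -0.45 ± 0.47 for KLF5 (0.732). With edgeR 0 of the 8 passed and 2, KLF9 and KLF4, had an unadjusted p below 0.05, while DESeq2 called 1, KLF9, with a difference of 1.29 (adjusted p = 0.0316). Across all genes 4.13% were called. A diet difference confined to CD24-low cells was therefore not shown for KLF4, and for KLF9 it rested on the choice of tool. Averaged over both populations edgeR called 0 of the 8, with 3 at an unadjusted p below 0.05 and 2 called by DESeq2, against 11.1% of all genes called by edgeR. KLF9 was at 0.72 ± 0.22 in that average (adjusted p = 0.0552).

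The comparison of CD24-high with CD24-low cells asked how the genes were set in the differentiated and the stem-like fraction. Under the standard diet none of the 8 was called with edgeR, none had an unadjusted p below 0.05 and DESeq2 called 0. The log2 fold changes of CTR_HI over CTR_LO lay between -0.19 for KLF9 and 0.13 for KLF5, and across all genes 0% were called, with 91 at an unadjusted p below 0.05. Those 91 are a far smaller share of the 15461 genes tested than the 0.05 that a test gives on average where nothing differs. The test was thus conservative in this comparison, and the lack of calls does not show that levels were equal. Under the fasting-mimicking diet 1 of the 8 passed, against 14.0% of all genes. That gene was KLF9, lower in FMD_HI than in FMD_LO with a log2 fold change of -1.45 ± 0.31 (adjusted p = 0.00749). KLF4 had a log2 fold change of -0.62 ± 0.20 (adjusted p = 0.0531), just outside the threshold, and KLF5 0.58 ± 0.33 (0.311). FMD_LO enters both this comparison and the one between diets, so the KLF9 and KLF4 values of the 2 comparisons are not independent.

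Under the fasting-mimicking diet, libraries of the 2 populations with the same replicate number deviated together from their group means (r = 0.741, 0.525 and 0.740 over genes), and the populations were therefore also compared within numbers. KLF5 was higher in FMD_HI than in FMD_LO in 3 of 3 pairs, by factors of 1.29 to 1.81. With the number as a block and the 6 libraries of this diet alone, its log2 fold change was 0.61 ± 0.08 (adjusted p = 3.54e-05, edgeR). KLF10 was likewise higher in 3 of 3 pairs, by factors of 1.22 to 1.42, and reached 0.39 ± 0.07 (adjusted p = 1.72e-04). With the block in the fit of all 12 libraries neither was called, at adjusted p = 0.215 for KLF5 and 0.202 for KLF10. That block gives same-numbered libraries of both diets a shared effect, although the numbers did not pair libraries between diets. It is therefore not a like-for-like check of the paired values.

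KLF9 was lower in FMD_HI in all 3 pairs, at 0.301 to 0.426 times the FMD_LO level, with a paired log2 fold change of -1.44 ± 0.09 (adjusted p = 3.73e-09). KLF4 was at 0.541 to 0.720 times the FMD_LO level, with -0.64 ± 0.08 (adjusted p = 5.3e-06), and KLF2 at 0.660 to 0.950 times, with -0.32 ± 0.10 (0.0174). EHMT1 was called at 0.22 ± 0.08 (adjusted p = 0.0473), although it was higher in only 2 of 3 pairs. KLF6 and EHMT2 were not called, at 0.03 ± 0.06 (adjusted p = 0.769) and -0.08 ± 0.07 (0.369). The paired fit called 6 of the 8 genes, but it also called 40.2% of the 14619 genes it tested, and it had 2 residual degrees of freedom. Its standard errors and p-values rest on estimates of spread shared across genes, and not on the 3 pairs of each gene alone. With the block in the fit of all 12 libraries KLF9 alone was called (adjusted p = 0.00613), and KLF4 (0.0748), KLF2 (0.210) and EHMT1 (0.213) were not. As said above, that block also ties the numbers across the diets. The leukocyte and fibroblast sums were lower in FMD_HI as well, at 149 to 176 CPM in FMD_HI against 717 to 755 in FMD_LO, and at 14450 to 18150 CPM in FMD_HI against 47060 to 69670 in FMD_LO. Their part in the population differences was not tested.

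Under the standard diet same-numbered libraries deviated together for numbers 1 and 2 (r = 0.579 and 0.707) but hardly for number 3 (r = 0.0346). Whether the numbers pair the libraries of this diet was therefore not settled. KLF5 was higher in CTR_HI in 2 of 3 same-numbered comparisons, with ratios of 0.945 to 1.23, and KLF9 in 1 of 3, with ratios of 0.566 to 1.82. A fit of the libraries of this diet alone, blocked by number, gave log2 fold changes of 0.13 for KLF5 and -0.15 for KLF9. Neither was called (adjusted p = 0.9999 for each, edgeR), and 0 of the 8 genes were called in that fit. The difference between diets in the KLF5 population difference is the interaction given above, which did not pass.

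**Figure D3:**
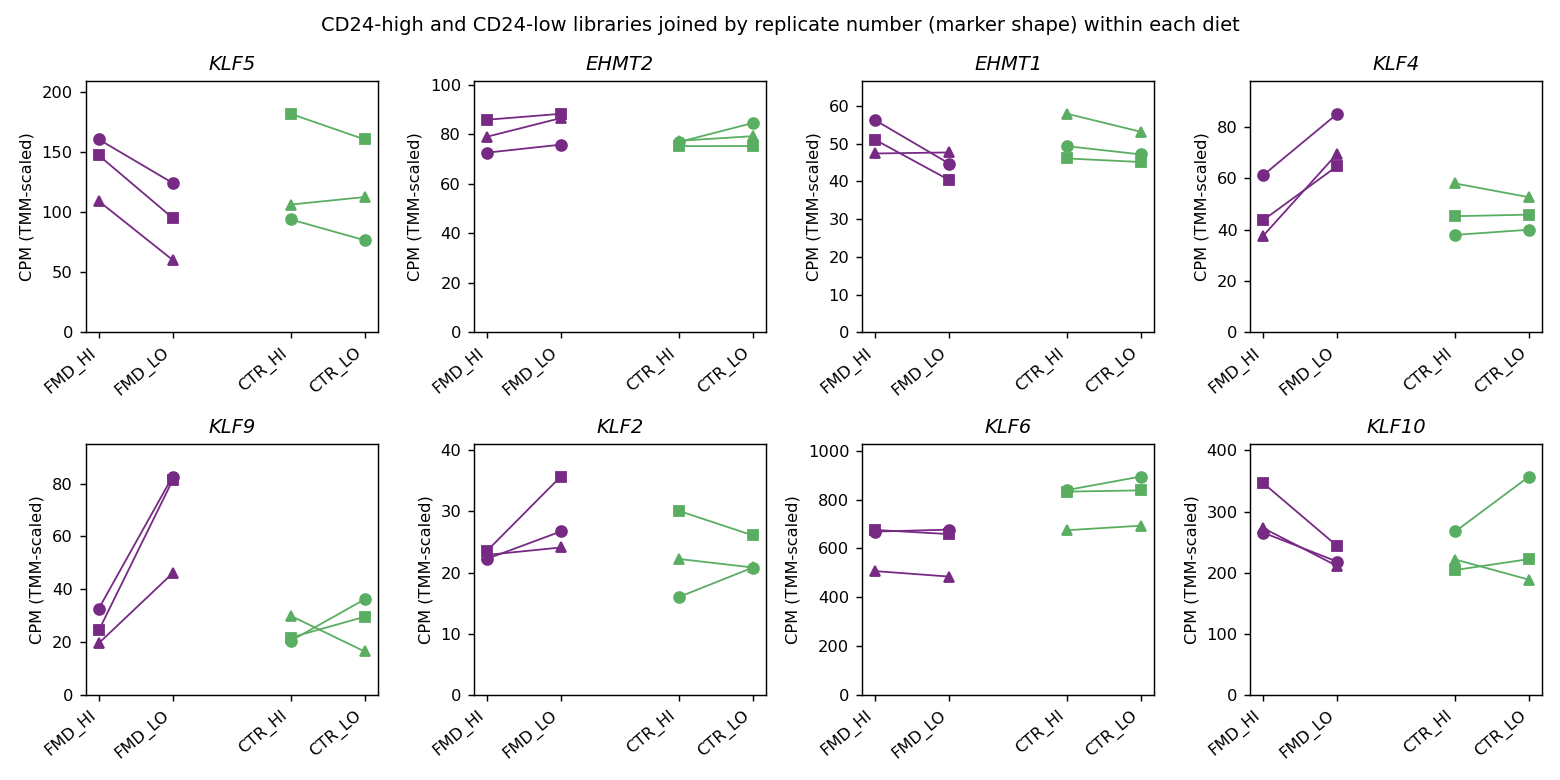
CPM of each gene in CD24-high and CD24-low libraries, joined by replicate number, for the fasting-mimicking (purple) and the standard diet (green), with a vertical axis from 0. In the 3 purple pairs KLF5 and KLF10 are higher in FMD_HI and KLF4 and KLF9 lower, while the green lines of KLF5, KLF9 and KLF10 run in both directions.

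The other KLF and SP factors, which share the same zinc-finger domain, were tested for 16 of 20 genes. In FMD_LO 5 were called higher than in CTR_LO and 0 lower, where 16.4% of all genes were called in either direction. The 16 had a median log2 fold change of 0.51, against -0.03 for all genes. SP3, a widely expressed factor that competes with SP1 for GC boxes, averaged 128 ± 4.78 CPM in FMD_LO and 74.1 ± 10.9 in CTR_LO (log2 fold change 0.79 ± 0.12, adjusted p = 7.01e-04). It was the 1 gene of this list called in the interaction, at 0.78 ± 0.17 (adjusted p = 0.0218), a call lost in 5 of the 12 fits that left out a library. SP4 averaged 11.9 ± 3.67 CPM in FMD_LO and 3.29 ± 0.567 in CTR_LO, a log2 fold change of 1.86 ± 0.30 (adjusted p = 8.09e-04). KLF7 and SP2 followed with 0.61 ± 0.15 and 0.64 ± 0.16 (adjusted p = 0.0131 and 0.0161), and the call of each was lost in 2 of the 12 fits that left out a library. The fifth was KLF11, a repressor close to KLF10, with 0.47 ± 0.15 (adjusted p = 0.0477), a call lost in 6 of those 12 fits. In CD24-high cells 0 of the 16 were called by edgeR and 4 had an unadjusted p below 0.05, as had 1042 of all 15461 genes. KLF11 was at 0.73 ± 0.15 there (adjusted p = 0.342). Over both populations KLF11 was called, with an adjusted p of 0.00372.

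**Figure D4:**
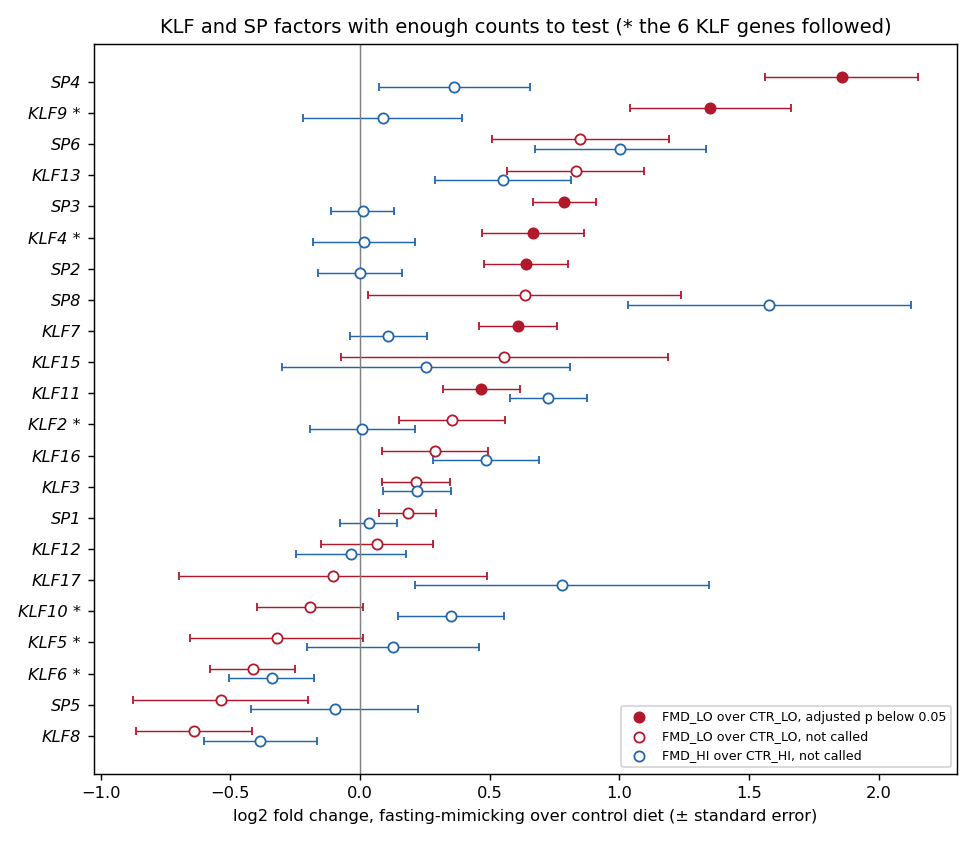
Log2 fold changes of the fasting-mimicking over the standard diet with standard errors for the 22 KLF and SP genes with enough counts, ordered by the value in CD24-low cells (red, filled where the adjusted p is below 0.05) with CD24-high cells in blue. The 7 filled points lie between 0.47 and 1.86, and KLF5, KLF6 and KLF10 lie left of 0 in CD24-low cells without a call.

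Genes that place, read or remove methyl groups on histone H3 lysine 9 were tested for 26 of 26. In CD24-low cells 4 were called higher in FMD_LO and 1 lower, with a median log2 fold change of 0.04, against 16.4% of all genes called in either direction. The 4 were KDM3A, KDM7A, KDM4C and JMJD1C. The demethylases KDM3B, KDM4A, KDM4B, KDM4D, KDM1A and PHF8 were not called, with log2 fold changes of -0.21 for KDM4A to 0.52 for PHF8. KDM3A, which removes 1 or 2 methyl groups from that lysine, averaged 165 ± 9.87 CPM in FMD_LO and 66.3 ± 14.0 in CTR_LO (log2 fold change 1.32 ± 0.17, adjusted p = 1.83e-04). KDM7A was at 1.55 ± 0.35 (adjusted p = 0.0116) and KDM4C at 0.45 ± 0.12 (0.0172), and the called decrease was that of MPHOSPH8, a reader of the mark and subunit of the HUSH silencing complex, at -0.41 ± 0.11 (0.0221). The calls of KDM7A, KDM4C, JMJD1C and MPHOSPH8 were each lost without at least 1 single library. KDM3A was also called in the interaction, at 1.10 ± 0.24 (adjusted p = 0.0206), and lost that call in 3 of the 12 fits that left out a library.

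KLF5 protein is governed largely by its breakdown, and of 10 genes known to act on it 2 were called higher in FMD_LO and 0 lower, with a median of 0.22. That share was near the 16.4% of all genes called. SMURF2, a ubiquitin ligase that lowers KLF5, averaged 41.8 ± 8.45 CPM in FMD_LO and 21.0 ± 2.71 in CTR_LO (log2 fold change 0.99 ± 0.18, adjusted p = 0.00231). USP3, a deubiquitinase that stabilises KLF5, averaged 29.2 ± 1.30 CPM in FMD_LO and 21.0 ± 1.14 in CTR_LO, a log2 fold change of 0.48 ± 0.11 (adjusted p = 0.00741). Between populations under the fasting-mimicking diet both were lower in FMD_HI than in FMD_LO, with -0.79 ± 0.18 (adjusted p = 0.00909) and -0.50 ± 0.11 (0.00494), as was WWTR1, which encodes the coactivator TAZ, with -0.67 ± 0.15 (0.00678). These were the 3 of the 10 called in that comparison, where 14.0% of all genes were called.

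Of 18 genes described as targets of KLF5, 16 were tested, and 1 was called higher and 1 lower in FMD_LO, with a median log2 fold change of -0.18, where 16.4% of all genes were called. They were CDKN1B, a cell cycle inhibitor, at 0.49 ± 0.14 (adjusted p = 0.0262), and IGFL1, an insulin-like growth factor family member with 1 count in all FMD_LO libraries together and 61 in CTR_LO. Both calls were lost without some single libraries. Between populations under the fasting-mimicking diet TNFAIP2, which KLF5 activates in basal breast cancer cells, was called higher in FMD_HI, at 609 ± 64.7 CPM against 366 ± 12.2 in FMD_LO (log2 fold change 0.73 ± 0.15, adjusted p = 0.00494). CDKN1B was called lower there, at -0.46 ± 0.14 (adjusted p = 0.0387, lost in 4 of the 12 such fits). These were the only 2 of the 16 called in that comparison, where 14.0% of all genes were called. Over the 16 genes the median was 0.35 against 0.06 for all genes. Protein activity of KLF5 was not measured in these libraries.

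Genes of the pathways that act on other members were read in the same way. Of 15 glucocorticoid and fasting targets, 3 were called higher in FMD_LO and 0 lower, where 16.4% of all genes were called. They were PDK4, which restrains pyruvate dehydrogenase, at 2.15 ± 0.47 (adjusted p = 0.00903), the clock gene PER1 at 0.85 ± 0.20 (0.0119) and ZBTB16 at 2.84 ± 0.62 (0.00700). Averaged over both populations the same 3 were called higher and 1, SGK1, lower (adjusted p = 0.0156, edgeR), where 11.1% of all genes were called. The log2 fold change of SGK1 lay between -0.56 and -0.44 over all fits. Of 11 early targets of transforming growth factor beta tested, 6 were called higher in FMD_LO and 0 lower, where 16.4% of all genes were called. Their median log2 fold change was 0.76. Among the 6 were ID1, an inhibitor of differentiation, at 1.18 ± 0.20 (adjusted p = 0.00163) and SKIL, a repressor of SMAD proteins, at 1.11 ± 0.23 (0.00552). KLF10, itself such a target, was at -0.19. Of 13 genes of the protein kinase A and CREB pathway, 3 were called higher and 0 lower, again beside 16.4% of all genes, led by CRTC2, a CREB coactivator, at 126 ± 15.3 CPM in FMD_LO and 43.4 ± 4.46 in CTR_LO (log2 fold change 1.54 ± 0.15, adjusted p = 1.82e-05). In CD24-high cells edgeR called 0 of the 107 tested genes of these 7 lists, with 19 at an unadjusted p below 0.05 and 3 called by DESeq2. Across all 15461 genes tested, 1042 had an unadjusted p below 0.05 there. Of the 19, 8 were among the 11 targets of transforming growth factor beta, whose median log2 fold change in CD24-high cells was 0.57. Between populations under the standard diet edgeR called 0 of 107, with 0 at an unadjusted p below 0.05 and 0 called by DESeq2. In the interaction 3 of 107 were called, SP3, KDM3A and CRTC2, the last at 1.38 ± 0.20 (adjusted p = 0.00207).

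The genes whose profile over the 12 libraries lay closest to each member were found by the root mean square difference of log2 CPM, each gene centred on its own mean, among 10782 genes. For KLF5 they included SOWAHC at 0.174 log2 units and SQLE, an enzyme of cholesterol synthesis, at 0.181, where the median gene lay at 0.493. For KLF9 they were WNT5A, a secreted signalling protein, at 0.186, S1PR3 at 0.206 and EPB41L1 at 0.213, with a median of 0.768. LCOR, CNOT1 and NUP98 lay closest to KLF4, at 0.107 to 0.131. ZFP36, an early-response gene that destabilises messenger RNA, lay closest to KLF10 at 0.141, and SVIL-AS1 closest to KLF6 at 0.118. OSER1 was closest to KLF2 at 0.124, AGPAT3 to EHMT1 at 0.0509 and BTN2A1 to EHMT2 at 0.0511. The distances of EHMT1 and EHMT2 are small partly because these genes themselves varied little, by 0.140 and 0.0897 log2 units about their means, against 0.724 for KLF9 and 0.450 for KLF5.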

How the data were processed

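Polyadenylated, strand-specific RNA of sorted SUM159 tumour cells was sequenced. STAR and hg38 are the tool and build named in the submitters' processing notes. Versions, annotation and any removal of mouse reads are not given in the sources used here. Raw counts per gene and strand were deposited, and the column of the reverse strand, which this kit reads, was used (opposite-strand share 1.59% to 1.75%). Names of 23749 of 26475 symbols matched RefSeq; transcript lengths came from GENCODE.

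All 4 groups were fitted together with edgeR 4.0.16 (robust quasi-likelihood, TMM scaling, default filter by group; R 4.3.3). This left 8 residual degrees of freedom. The filter kept 15461 genes and left out 11014. A call is an adjusted p below 0.05 (Benjamini-Hochberg, over every gene that passed the filter). The standard error of a log2 fold change is its size divided by the square root of the F statistic. CPM are TMM-scaled. Principal components and likeness used log2 CPM with a prior count of 2, and likeness took genes of at least 5 CPM on average.

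The 8 genes, the 7 pathway and 5 marker lists and the tests were chosen with earlier results of these data known, so lists are described by counts and medians, without a test. Named were the 8 genes, up to 4 called members of each list with the smallest p per comparison, the 3 genes most like each of the 8, and up to 3 markers per list. The text prints part of these, for 5 of the 8 only the nearest gene; a gene this rule took is withheld and not reported here. KLF11, JMJD1C, the other demethylases, KRT18, TYROBP and further markers were named after their values were seen.

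Replicate numbers were taken to pair libraries where the correlations of all 3 same-numbered pairs were over 0.1. This held under the fasting-mimicking diet and not between diets. Under the standard diet it failed for number 3 alone, so pairing there was left undecided. The pairing is a hint from the data and not from the labels. Alternatives were reads of either strand, RLE and upper-quartile scaling, no filter, DESeq2 1.42.0, only the groups compared, a replicate block, thinning to the smallest total, and each of 12 libraries left out. In the fit of all 12 libraries the replicate block gives same-numbered libraries of both diets a shared effect, although the numbers did not pair libraries between diets. The fit with the block on the libraries of 1 diet was added after the data were seen.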

Additional observations from a re-analysis of the deposited data

Results flagged for a closer look

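The diet difference itself differed between CD24-low and CD24-high cells, by the interaction test of edgeR, for 3 of the 107 pathway genes tested and for 0 of the 8 KLF and EHMT genes. Across all genes tested 4.13% were called, so the count of pathway genes was below that of genes at large. SP3 differed by 0.78 on the log2 scale (adjusted p = 0.0218), KDM3A by 1.10 (0.0206) and CRTC2 by 1.38 (0.00207), each in the direction of a larger difference in CD24-low cells. FMD_LO, the group that sets these values, is also the group of lower depth and of higher leukocyte and fibroblast marker sums, and their part in the 3 values was not tested. CRTC2 kept its call in all 12 fits that left out a library, KDM3A in 9 and SP3 in 7.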

How the results depend on the processing

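KLF9 kept its call between diets in CD24-low cells and between populations under the fasting-mimicking diet in all fits, with log2 fold changes of 1.09 to 1.60 and -1.69 to -1.29. KLF4 between diets lost it with a replicate block (adjusted p = 0.0517), and KLF4 between populations under the fasting-mimicking diet gained it in 5 of 9 other settings (0.0204 with DESeq2). KLF6 in CD24-low cells was called with upper-quartile scaling (-0.51, adjusted p = 0.0351) and the block (0.00768). The block ties same-numbered libraries of both diets, although the numbers did not pair libraries between diets. Upper-quartile scaling moved the median of all genes to -0.13 between diets in CD24-low cells, against -0.03, and to 0.11 between populations under the fasting-mimicking diet, against 0.06, so its values are shifted by that much.

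Of the 8 genes, those called over both populations numbered 1 with reads of either strand, RLE, upper-quartile scaling or no filter, and 2 with DESeq2, the replicate block or thinning. Between populations under the fasting-mimicking diet they numbered 2 with reads of either strand, RLE, DESeq2 or thinning, and 6 in the paired fit, which called 55 pathway genes against 14. Of all genes it tested the paired fit called 40.2%, against 14.0% in the main fit. In the interaction 1 of the 8 genes was called with DESeq2. Pathway genes called in the interaction numbered 6 with RLE, 5 with no filter, 7 with DESeq2 and 5 with the replicate block, and in CD24-high cells 1 with no filter, 3 with DESeq2 and 1 with the block. Leaving out single libraries gave 1 to 2 of the 8 genes between diets in CD24-low cells, 0 to 2 over both populations and 1 to 2 between populations under the fasting-mimicking diet, and 15 to 35, 0 to 1 and 1 to 5 pathway genes between diets in CD24-low cells, in CD24-high cells and in the interaction. The causes were not tested.

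Values near 0 changed sign. With upper-quartile scaling EHMT2 in CD24-low cells was at -0.0253, and in CD24-high cells KLF2 was at -0.0223, KLF4 at -0.0244 and EHMT1 at -0.0221. KLF2 there was at -0.00509 after thinning. Leaving out single libraries gave between diets in CD24-high cells KLF5 -0.052 to 0.49, KLF2 -0.19 to 0.28, KLF4 -0.20 to 0.19, KLF9 -0.12 to 0.27 and EHMT1 -0.047 to 0.11. It gave KLF10 in CD24-low cells -0.36 to 0.12, KLF6 between populations under the fasting-mimicking diet -0.10 to 0.15, and under the standard diet KLF5 -0.22 to 0.42 and KLF9 -0.44 to 0.064. Only the fit over 6 libraries with a block had as few as 2 residual degrees of freedom. Depth limited no member, as counting error was at most 4.75%. Groups of 3 limited all comparisons.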
